A study of Homo sapiens with 9 samples.

Results

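The 10 genes described here encode proteins that receive, carry and buffer the signal of insulin and of the insulin-like growth factors (IGFs). They are the docking proteins IRS1, IRS2 and IRS4, the receptors INSR, IGF1R and IGF2R, the secreted binding proteins IGFBP2, IGFBP4 and IGFBP5, and PIK3R1, the regulatory subunit of phosphoinositide 3-kinase (PI3K). They were taken by symbol from a count table of 60648 genes, and all 10 were among the 19473 genes that passed the filter on low counts and were tested. All cells derive from T-REx, a line of human embryonic kidney HEK293 cells that makes the tetracycline repressor. TC4-2A cells carry an insertion that, with doxycycline (Dox), makes C2A–2B–3–4, a circular RNA built from SMN1 and SMN2 exons. TL4-2A cells carry an insertion for L2A–2B–3–4, a linear RNA with the same stretch of exons, and the T-REx control cells carry none. All 3 lines, the control included, received Dox for 96 h, and each is represented by 3 libraries of RNA depleted of ribosomal RNA.

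Insulin and the IGFs bind receptor tyrosine kinases, which phosphorylate docking proteins of the IRS family. The phosphorylated docking proteins recruit PI3K, whose lipid product activates AKT and, through it, the growth kinase mTOR, while FOXO transcription factors are kept out of the nucleus. Binding proteins hold IGFs outside the cell until proteases release them, and IGF2R carries IGF2 to lysosomes without signalling. IRS4 is the docking protein for which HEK293 cells are known.

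The libraries held 16561680 to 21491977 counts, and their scaling factors lay between 0.9906 and 1.014. SMN1 and SMN2, which count both the inserted exons and the endogenous transcripts, together had 91.6 to 97.5 CPM (counts brought to the same depth in each library) in TC4-2A cells and 61.5 to 64.1 CPM in TL4-2A cells, against 53.6 to 55.6 CPM in T-REx cells. All 8 marker genes listed for HEK293 cells exceeded 1 CPM in every library, and their summed level was 922.5 to 961.0 CPM in TC4-2A and 951.4 to 963.9 CPM in TL4-2A cells, against 1175 to 1221 CPM in T-REx cells. Of the fibroblast markers 1 of 4 exceeded 1 CPM in every library, and the list summed to 9.14 to 10.1 CPM in TC4-2A and 8.02 to 8.23 CPM in TL4-2A cells, against 11.3 to 11.5 CPM in T-REx cells. Markers of blood cells, endothelium, hepatocytes and keratinocytes summed to less than 1 CPM in each library. The part of these marker differences in the results below was not tested. In such bulk RNA, fewer expressing cells and less RNA per cell cannot be told apart. Whether a line is 1 clone, and whether its libraries stand for separate cultures, is nowhere stated in the sources used here, so the p-values below measure only the spread between these libraries.

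IRS4 stood far above the other docking proteins in every library. Per kilobase of the canonical transcript it had 431.1 ± 7.40 CPM in TC4-2A cells, 567.8 ± 11.6 CPM in TL4-2A cells and 356.8 ± 5.45 CPM in T-REx cells (SD, n = 3 each). On the same scale IRS2 had 4.44 ± 0.109, 4.77 ± 0.190 and 4.29 ± 0.152 CPM per kilobase in TC4-2A, TL4-2A and control cells, and IRS1 had 1.27 ± 0.0732, 1.70 ± 0.106 and 1.45 ± 0.0693. IRS4 thus made up 98.36% to 98.94% of the summed per-length level of the 3 docking proteins. Among 13668 protein-coding genes tested, its per-length level ranked from 89 to 96 in TC4-2A, from 57 to 63 in TL4-2A and from 102 to 112 in T-REx libraries. The remaining genes followed at a distance, led by IGFBP2 with 27.2 ± 2.22, 41.3 ± 0.678 and 32.9 ± 0.0265 CPM per kilobase in TC4-2A, TL4-2A and control cells. IGFBP4 was lowest in each line, at 0.583 ± 0.0759, 0.262 ± 0.0377 and 0.494 ± 0.137 CPM per kilobase. Neighbours in this order did not overlap, except INSR and PIK3R1 in TC4-2A and TL4-2A cells and IGF1R and IGF2R in TL4-2A and T-REx cells. Reads were counted by gene and not by transcript, so the order and the ranks of IRS4 rest on the length chosen. The canonical transcript and all exons together measure 1.414 and 4.742 kb for IGFBP2, 12.235 and 13.941 kb for IGF1R and 6.563 and 16.618 kb for IRS4. The lead of IGFBP2 over the genes below it was not tested with the longer lengths.

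The promoter windows of RefSeq (GRCh38.p14), which run from 250 bases before to 50 bases after a transcript's start, held all 10 genes, in 16 windows. The 250 bases before the upstream start of IRS4, the gene with the highest level, are shown because the changes described below set IRS4 apart from its neighbours on the X chromosome. They lie at chrX:108736564-108736813 on the minus strand, and capitals mark GC boxes (GGGCGG, read on either strand).
IRS4 upstream: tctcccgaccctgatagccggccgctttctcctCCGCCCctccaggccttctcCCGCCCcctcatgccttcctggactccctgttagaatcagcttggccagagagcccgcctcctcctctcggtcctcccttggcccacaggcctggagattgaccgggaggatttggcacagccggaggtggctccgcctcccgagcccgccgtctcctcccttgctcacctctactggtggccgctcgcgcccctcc
A GC box stood in a window of 9 of the 10 genes, all but IGFBP5, and in 44.95% of all 35116 windows. The former counts genes, some with several windows, and the latter counts single windows, so they are not like measures. IGFBP2 and PIK3R1 also had windows without a GC box.

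The 3 docking protein genes were further compared with each other near their starts. Stretches of 30 bases were lined up by the E-box CACGTG for IRS4 and IRS1 and by TGTTTTG for IRS4 and IRS2, whose stretch holds no CACGTG, after the windows had been read, so that their likeness carries no test. Capitals mark CACGTG and TGTTTTG, the letters at the core of insulin response elements, searched on both strands. The IRS4 stretch is at chrX:108736501-108736530, the IRS2 stretch at chr13:109786616-109786645 and the IRS1 stretch at chr2:226799771-226799800, all on the minus strand.
IRS4: gcgtgaggctgtggtCACGTGtTGTTTTGc
IRS2: tgcgtaacgccgagtcacatgtTGTTTTGc
IRS1: gcgcggaggctccgtCACGTGtttttctcc
IRS4 and IRS2 shared a run of 11 bases here, found in 8 of the 35116 windows, and IRS4 and IRS1 a run of 10 bases, found in 18. IRS2 and IRS1 shared a run of 6 bases here, found in 19.25% of windows. Over whole windows the longest run of IRS2 and IRS4 was a different one of 13 bases, found in 75 windows. The IRS4 and IRS1 stretches lie after the first base of their gene, and the IRS2 stretch lies before it. The IRS4 stretch was read in the window of a downstream start (chrX:108736328-108736627), and it lies before that start. CACGTG itself stood in 7.26% of all windows and TGTTTTG in 4.92%, and 0.29% of windows held both. Among the 10 genes CACGTG was found in IRS1, IRS4 and IGF2R, TGTTTTG in IRS2 and IRS4, and the FOXO site GTAAACA, which 3.42% of windows held, in none. These are matches of letters and not sites shown to be bound.

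IRS4 rose in both lines, and more in TL4-2A than in TC4-2A cells. Its libraries held 2777, 2837 and 2873 CPM in TC4-2A cells and 3813, 3668 and 3698 CPM in TL4-2A cells, against 2383, 2326 and 2317 CPM in T-REx cells. The 3 lines did not overlap, and each line's libraries lay close together. On the log2 scale IRS4 was 0.27 higher in TC4-2A than in T-REx cells (standard error 0.03, 1.21-fold, edgeR adjusted p = 3.13e-09). In TL4-2A cells it was 0.67 higher than in T-REx cells (standard error 0.03, 1.59-fold, edgeR adjusted p = 6.16e-20). Compared directly, TC4-2A cells were 0.40 below TL4-2A cells (log2 fold change -0.40, standard error 0.03, edgeR adjusted p = 1.27e-13). IRS4 alone took 0.2755% to 0.2865% of all counts in TC4-2A, 0.3634% to 0.3802% in TL4-2A and 0.2327% to 0.2412% in T-REx libraries. The antisense RNA IRS4-AS1, singled out after its values were seen, averaged 3.96 CPM in the TC4-2A and 10.8 CPM in the TL4-2A line, against 6.20 CPM in T-REx cells. It fell in TC4-2A cells (log2 fold change -0.64, edgeR adjusted p = 2.61e-04) and rose in TL4-2A cells (0.80, edgeR adjusted p = 4.16e-07). The library kit keeps strand, but the strand setting of the counting is not given in the sources used here, so reads of overlapping parts of IRS4 and IRS4-AS1 may not be separated. The level of IRS4-AS1 in CPM, not adjusted for length, came to 0.235% of that of IRS4.

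IRS1 and IRS2, the docking proteins that carry insulin signals in most tissues, had smaller log2 fold changes against T-REx cells than IRS4. IRS1 had 13.1, 12.3 and 11.7 CPM in TC4-2A cells and 16.1, 15.8 and 17.7 CPM in TL4-2A cells, against 13.6, 14.9 and 13.9 CPM in T-REx cells. Its log2 fold change was -0.19 in TC4-2A cells, which missed the threshold (95% interval -0.35 to -0.03, edgeR adjusted p = 0.0658). It rose in TL4-2A cells (0.22, standard error 0.08, edgeR adjusted p = 0.019) and was lower in TC4-2A than in TL4-2A cells (-0.41, edgeR adjusted p = 5.79e-05). IRS2 had 36.9, 36.4 and 35.2 CPM in TC4-2A cells and 37.5, 40.6 and 38.6 CPM in TL4-2A cells, against 35.7, 35.7 and 33.5 CPM in T-REx cells. The TC4-2A and T-REx libraries of IRS2 overlapped (log2 fold change 0.05, 95% interval -0.05 to 0.15, edgeR adjusted p = 0.506). In TL4-2A cells IRS2 rose by 0.16 (standard error 0.05, edgeR adjusted p = 0.0106). The TL4-2A calls of both genes were fragile, as that of IRS1 was lost without control library 1 or 3 or TL4-2A library 3 (edgeR adjusted p = 0.0683, 0.0584 and 0.117) and with DESeq2 (adjusted p = 0.0642). That of IRS2 was lost without control library 3 or TL4-2A library 2 (edgeR adjusted p = 0.0549 and 0.0702) and with no expression filter (edgeR adjusted p = 0.0516).

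**Figure D1:**
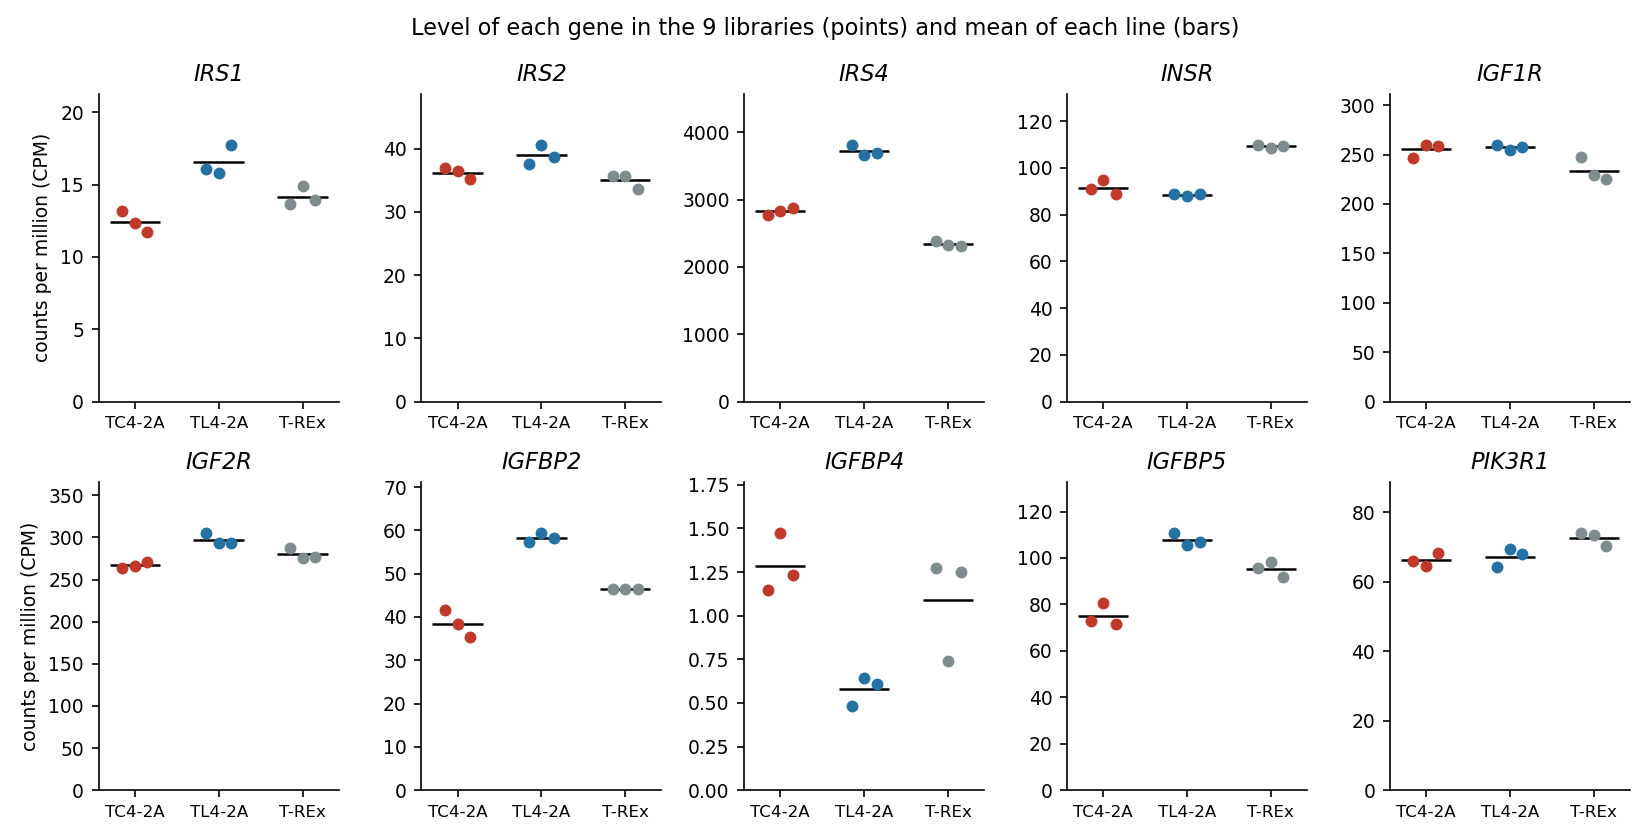
Level of each of the 10 genes in CPM (y axis, from 0, scaled for each gene) in the 3 libraries of the TC4-2A, TL4-2A and T-REx lines; points are libraries and bars their mean. IRS4 had 2777 to 2873 CPM in TC4-2A and 3668 to 3813 CPM in TL4-2A cells, above the 2317 to 2383 CPM of T-REx cells, while IGFBP2 and IGFBP5 lay below T-REx cells in TC4-2A and above them in TL4-2A cells.

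The receptors of insulin and of IGF1 went opposite ways. INSR, the insulin receptor, had 91.0, 94.7 and 88.8 CPM in TC4-2A cells and 88.9, 87.9 and 88.9 CPM in TL4-2A cells, against 109.9, 108.7 and 109.3 CPM in T-REx cells. It fell in both lines, with log2 fold changes of -0.26 in TC4-2A cells (standard error 0.04, edgeR adjusted p = 1.21e-06) and -0.30 in TL4-2A cells (standard error 0.04, edgeR adjusted p = 2.92e-08). The lines with an insertion overlapped each other (TC4-2A over TL4-2A 0.05, 95% interval -0.03 to 0.13). IGF1R, the receptor of IGF1 and IGF2, had 246.9, 259.8 and 259.0 CPM in TC4-2A cells and 259.2, 254.1 and 258.1 CPM in TL4-2A cells, against 247.6, 229.0 and 224.9 CPM in T-REx cells. It rose by 0.13 in TC4-2A cells (standard error 0.03, edgeR adjusted p = 0.00173), where 1 T-REx library lay within the TC4-2A range, and by 0.14 in TL4-2A cells (standard error 0.03, edgeR adjusted p = 4.84e-04). TC4-2A and TL4-2A cells differed in IGF1R by -0.01 (95% interval -0.07 to 0.05). IGF2R, which clears IGF2, had 264.1, 266.6 and 270.3 CPM in TC4-2A cells and 304.8, 292.8 and 293.0 CPM in TL4-2A cells, against 287.9, 275.1 and 276.3 CPM in T-REx cells. Its difference from T-REx cells was -0.07 in TC4-2A cells (edgeR adjusted p = 0.0671) and 0.09 in TL4-2A cells (edgeR adjusted p = 0.0119). The TL4-2A call of IGF2R was lost without control library 2 or 3 or TL4-2A library 1 (edgeR adjusted p = 0.0722, 0.0581 and 0.088) and with no expression filter (edgeR adjusted p = 0.0692), while the difference of -0.15 between TC4-2A and TL4-2A cells was called (edgeR adjusted p = 3.01e-05).

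The binding proteins IGFBP2 and IGFBP5 fell in TC4-2A and rose in TL4-2A cells. IGFBP2 had 41.6, 38.3 and 35.4 CPM in TC4-2A cells and 57.4, 59.3 and 58.3 CPM in TL4-2A cells, against 46.6, 46.5 and 46.5 CPM in T-REx cells, with no overlap between lines. Its log2 fold changes were -0.27 (standard error 0.05, edgeR adjusted p = 7.08e-05) in TC4-2A cells and 0.33 (standard error 0.05, edgeR adjusted p = 1.48e-06) in TL4-2A cells. IGFBP5, which also binds the extracellular matrix, had 72.9, 80.6 and 71.7 CPM in TC4-2A cells and 110.6, 105.8 and 106.8 CPM in TL4-2A cells, against 95.9, 98.4 and 91.9 CPM in T-REx cells. It fell by 0.34 on the log2 scale in TC4-2A cells (standard error 0.04, edgeR adjusted p = 5.48e-08) and rose by 0.17 in TL4-2A cells (standard error 0.04, edgeR adjusted p = 9.63e-04). Between TC4-2A and TL4-2A cells the log2 fold change was -0.60 for IGFBP2 (edgeR adjusted p = 3.09e-12) and -0.52 for IGFBP5 (edgeR adjusted p = 1.76e-12). IGFBP4 was sparse, with 8 to 31 counts a library. It had 1.15, 1.47 and 1.24 CPM in TC4-2A cells and 0.484, 0.642 and 0.610 CPM in TL4-2A cells, against 1.27, 0.742 and 1.25 CPM in T-REx cells. On the log2 scale IGFBP4 was 1.14 higher in TC4-2A than in TL4-2A cells (standard error 0.32, 2.21-fold, edgeR adjusted p = 0.00407), and the libraries of these lines did not overlap. The fall of IGFBP4 in TL4-2A against T-REx cells (-0.88, edgeR adjusted p = 0.027) was lost without control library 1 or 3 or TL4-2A library 1 or 3 (edgeR adjusted p = 0.101, 0.103, 0.0954 and 0.0534) and with DESeq2 (adjusted p = 0.0734).

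PIK3R1, which stabilizes the catalytic subunits of PI3K and ties them to docking proteins, fell slightly in both lines. It had 65.9, 64.6 and 68.5 CPM in TC4-2A cells and 64.3, 69.4 and 68.0 CPM in TL4-2A cells, against 74.0, 73.4 and 70.4 CPM in T-REx cells. No library of either line reached the lowest T-REx library. The log2 fold changes were -0.13 (standard error 0.04, edgeR adjusted p = 0.0235) in TC4-2A cells and -0.11 (standard error 0.05, edgeR adjusted p = 0.0441) in TL4-2A cells. The TC4-2A call was lost without control library 1 or 2 or TC4-2A library 2 (edgeR adjusted p = 0.0826, 0.0868 and 0.0784). The TL4-2A call was lost without control library 1 or 2 or TL4-2A library 1 or 3 (edgeR adjusted p = 0.12, 0.124, 0.202 and 0.0651) and with DESeq2 (adjusted p = 0.0754).

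**Figure D2:**
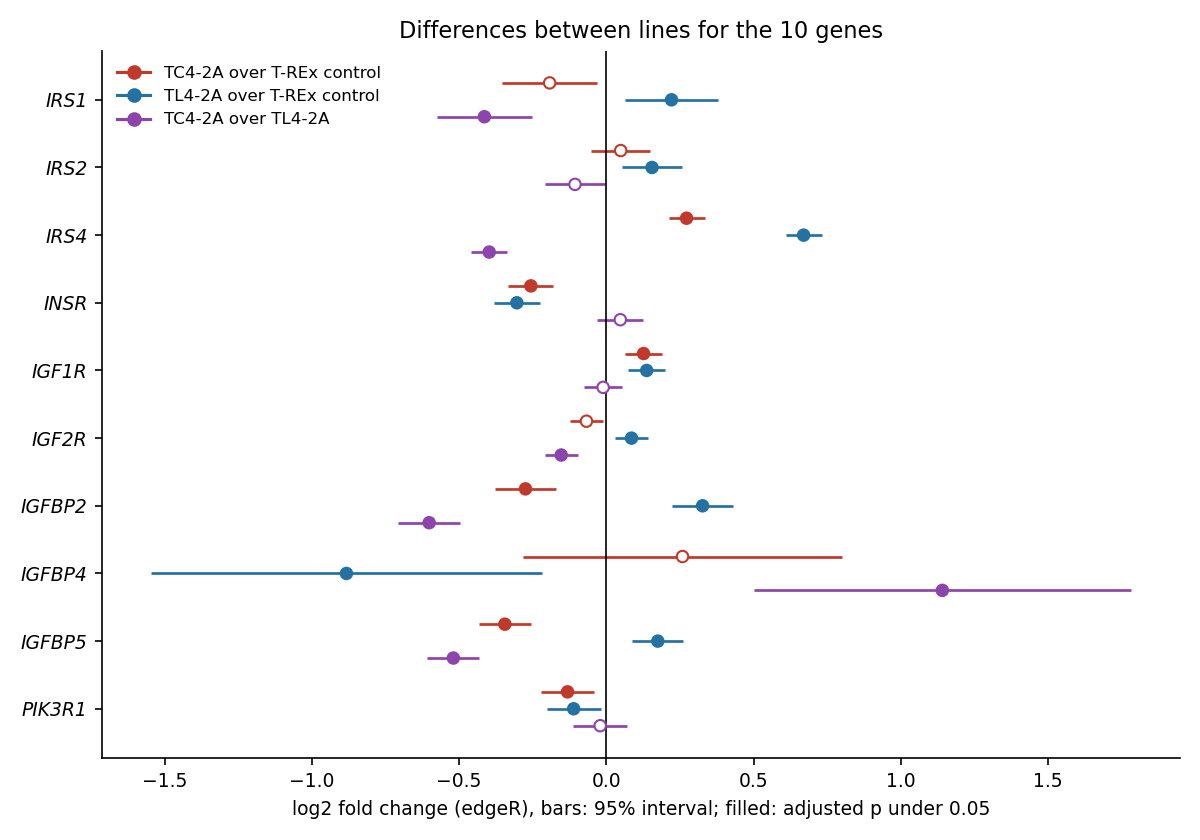
Log2 fold change (x axis) of each of the 10 genes for TC4-2A over T-REx, TL4-2A over T-REx and TC4-2A over TL4-2A cells; bars are 95% intervals and filled points have an adjusted p under 0.05. IRS4 was positive in both lines (0.27 in the TC4-2A and 0.67 in the TL4-2A line), INSR negative in both (-0.26 and -0.30), and IGFBP2 of opposite sign (-0.27 in the TC4-2A and 0.33 in the TL4-2A line).

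Counted over the 10 genes, 6 were called in TC4-2A against T-REx cells, 2 of them higher and 4 lower. Among all genes tested 28.8% were called in that comparison, 14.2% higher and 14.6% lower. In TL4-2A against T-REx cells all 10 were called, 7 higher and 3 lower, where 44.3% of all genes were called, 21.9% higher and 22.5% lower. The direct comparison called 6 genes, of which only IGFBP4 was higher in TC4-2A than in TL4-2A cells, with 35.4% of all genes called, 17.6% higher and 17.8% lower. Both comparisons with T-REx cells use the same 3 control libraries, so their values are set side by side and not counted as separate evidence. IRS4 and IGF1R rose and INSR and PIK3R1 fell in both lines, while IGFBP2 and IGFBP5 were called in opposite directions. The median log2 fold change of the 10 genes was -0.10 in the TC4-2A and 0.15 in the TL4-2A line, against 0.00 for all genes in either line. The count in TL4-2A cells was fragile. Without control library 3 it was 6, the smallest number left by any of the 9 omissions. Calls among the 10 genes were also lost without other control or TL4-2A libraries, with DESeq2 and with no expression filter.

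IRS1, IGFBP2 and IGFBP5 lie on the long arm of chromosome 2, IGFBP2 and IGFBP5 next to each other with their ends facing (GRCh38, chr2:216632828-216664436 on the plus and chr2:216672105-216695549 on the minus strand). IRS1 lies further along, at chr2:226731312-226799820 on the minus strand. Genes around all 3 were raised in TL4-2A cells. Of the 5 nearest tested protein-coding genes on each side, 10 of 10 rose around IRS1 (median log2 fold change 0.48), 9 of 10 around IGFBP2 (0.49) and 9 of 10 around IGFBP5 (0.48), where IGFBP2 and IGFBP5 are each other's neighbour. In TC4-2A cells the medians of the same neighbours were -0.005, -0.012 and 0.003. Along the chromosome the rise began about 140 Mb from its first base, a place picked out after the values were seen. Of 380 tested protein-coding genes beyond it 315 rose and 4 fell in TL4-2A cells (median 0.48), whereas of 541 genes before it 109 rose and 145 fell (median -0.01). The 52 of these in the first 20 Mb were shifted the other way in TL4-2A cells, where 2 rose and 39 fell (median -0.50). IRS1, IGFBP2 and IGFBP5, which lie beyond 140 Mb, rose by 0.22, 0.33 and 0.17 in TL4-2A cells, each less than the median of 0.48. Between TC4-2A and TL4-2A cells the genes beyond 140 Mb had a median of -0.49, beside -0.41 for IRS1, -0.60 for IGFBP2 and -0.52 for IGFBP5. RNA counts do not separate DNA copy number from expression per copy, and the part of this stretch, or of copy number, in the values of the 3 genes was not tested. Of the 7 genes that lie elsewhere 4 were called in TC4-2A and 7 in TL4-2A against T-REx cells, and 3 between TC4-2A and TL4-2A cells. The shares of all genes called in these comparisons were 28.8%, 44.3% and 35.4%.

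**Figure D3:**
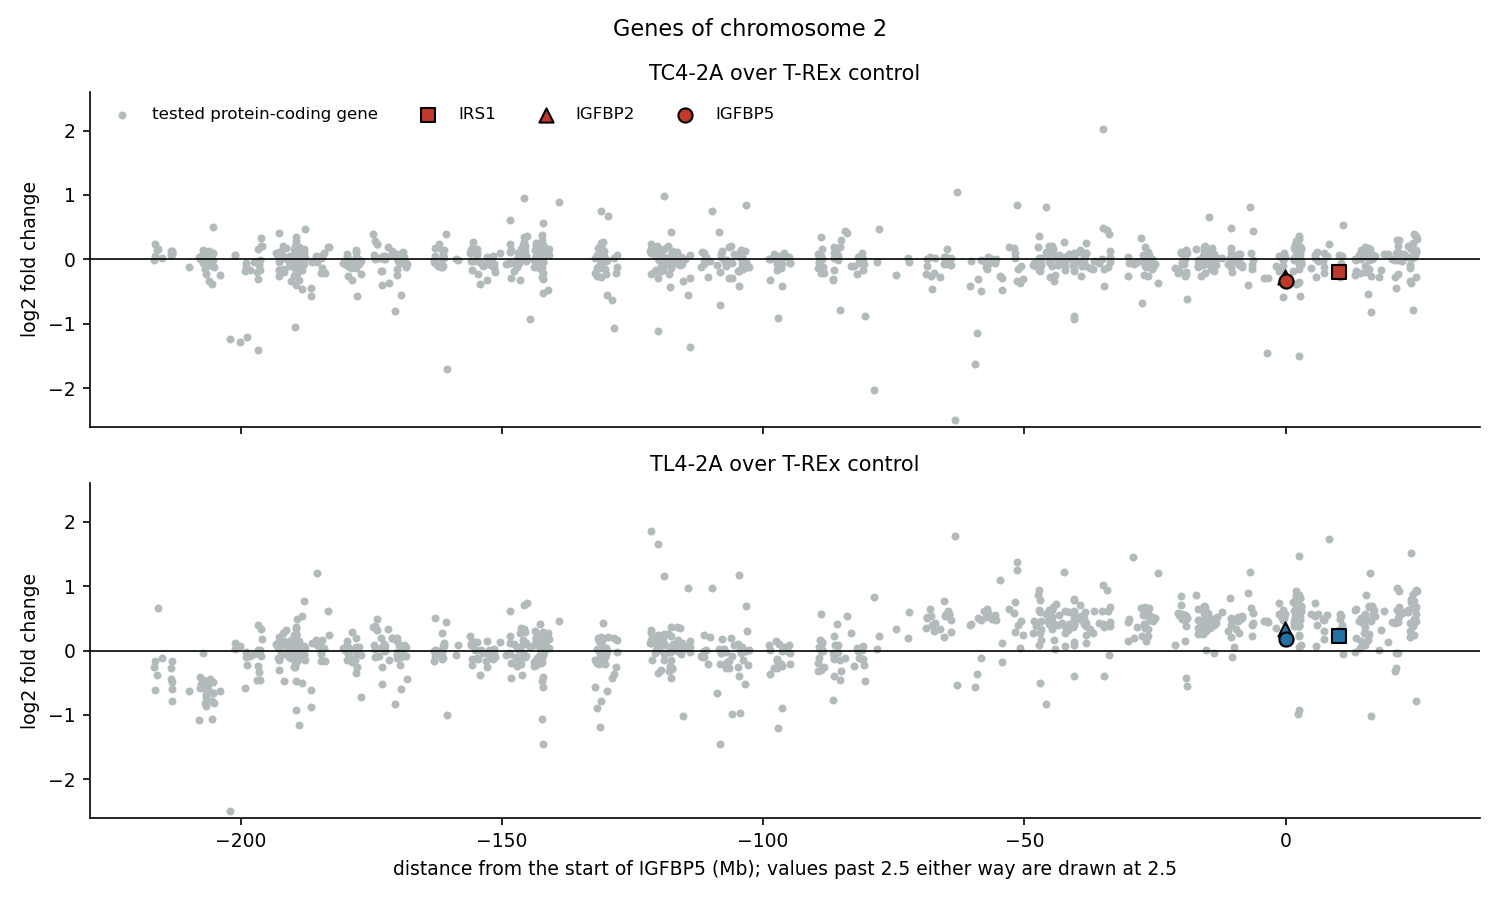
Log2 fold change (y axis) of the tested protein-coding genes of chromosome 2 by distance from the start of IGFBP5 (x axis, Mb), for TC4-2A over T-REx cells above and TL4-2A over T-REx cells below; coloured symbols are IRS1, IGFBP2 and IGFBP5. In TL4-2A cells the right-hand stretch sits above 0 (median 0.48 over 380 genes), with the 3 marked genes at 0.17 to 0.33.

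IRS4 differed from its neighbours. It lies at chrX:108719946-108736563 on the minus strand, and of the 10 tested protein-coding genes nearest to it 1 rose and 6 fell in TC4-2A cells (median log2 fold change -0.26), and 0 rose and 3 fell in TL4-2A cells (median -0.14). Falls outnumbered rises over the whole X chromosome too. Of its 466 tested protein-coding genes 48 rose and 169 fell in TC4-2A cells (median -0.08), and 76 rose and 149 fell in TL4-2A cells (median -0.06). COL4A5 and COL4A6, which encode chains of type IV collagen, fell in TC4-2A cells (-0.47 and -0.44, edgeR adjusted p = 1.43e-09 and 6.14e-09) and had 0.03 and -0.06 in TL4-2A cells, where neither was called. MID2, a ubiquitin ligase gene, fell in both lines (-0.41 in the TC4-2A and -0.42 in the TL4-2A line), as did PSMD10, which encodes a chaperone of proteasome assembly (-0.21 and -0.39). ATG4A, which encodes a protease of autophagy, fell in TC4-2A cells (-0.32, edgeR adjusted p = 0.00676) and was not called in TL4-2A cells (-0.16), and TMEM164 fell in both (-0.20 and -0.11). The TC4-2A call of ATG4A was lost without control library 2 or TC4-2A library 1 (edgeR adjusted p = 0.0857 and 0.06), and the TL4-2A call of TMEM164 without control library 1 or 2 or any 1 of the TL4-2A libraries (edgeR adjusted p from 0.0538 to 0.109). AMMECR1 rose in TC4-2A cells (0.17, edgeR adjusted p = 0.00793), which was lost without control library 2 (edgeR adjusted p = 0.051), and had 0.06 in TL4-2A cells. NXT2, ACSL4 and RTL9 were called in neither line. None of the 10 neighbours matched the rise of IRS4 of 0.67 in TL4-2A cells, where the highest value among them was 0.06.

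**Figure D4:**
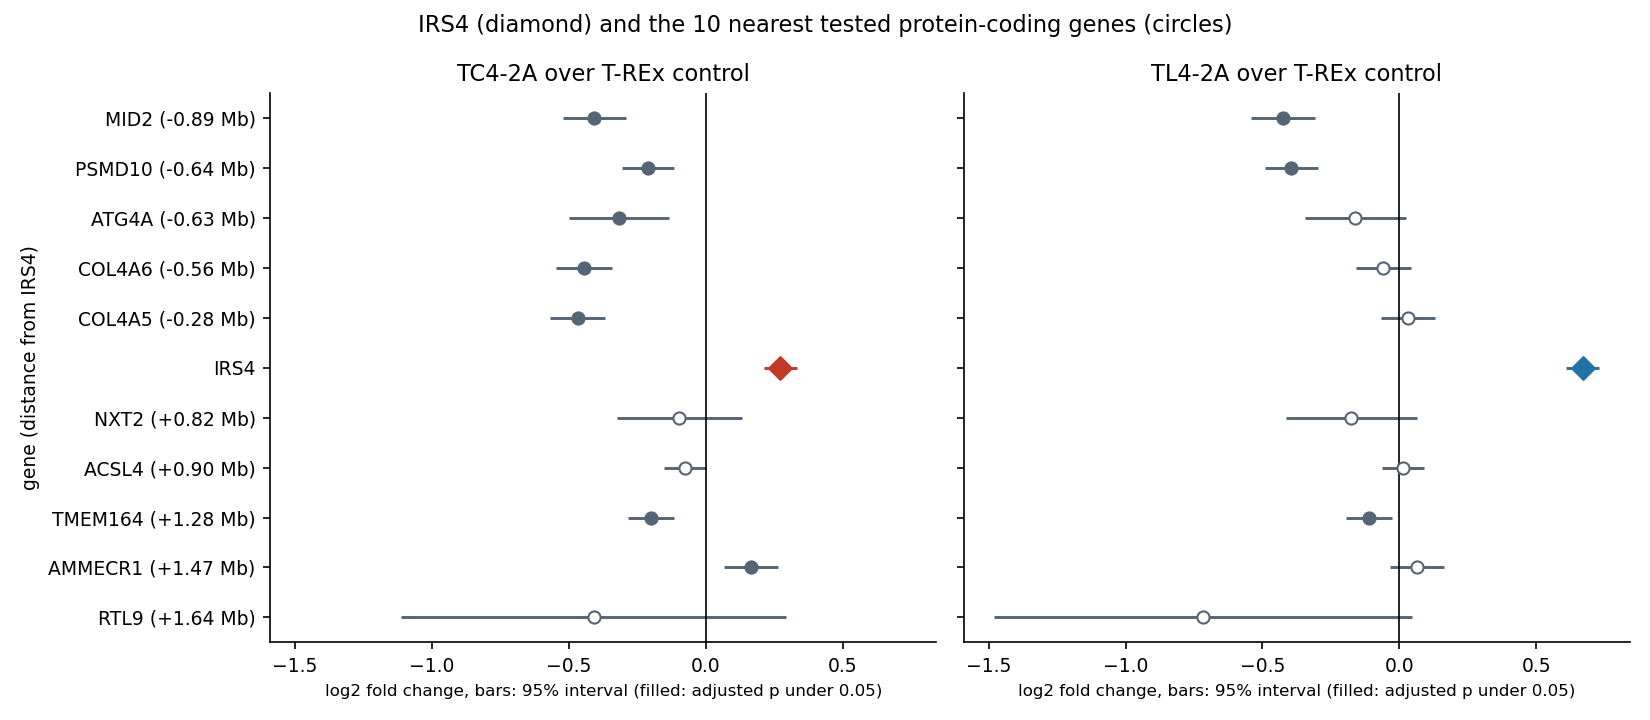
Log2 fold change (x axis) with 95% intervals of IRS4 (diamond) and its 10 nearest tested protein-coding genes (circles, in order along the chromosome with the distance in Mb), for TC4-2A over T-REx cells on the left and TL4-2A over T-REx cells on the right; filled symbols have an adjusted p under 0.05. The points of IRS4, at 0.27 and 0.67, lie to the right of those of all 10 neighbours, whose medians were -0.26 and -0.14.

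In TL4-2A cells the medians around the other genes were smaller in size than that of the stretch of chromosome 2. Around IRS2, on chromosome 13, 3 of 10 neighbours rose and 0 fell in TC4-2A cells (median 0.08), and 7 rose and 0 fell in TL4-2A cells (median 0.20), beside 0.05 and 0.16 for IRS2 itself. Chromosome 13 as a whole was raised in both lines, with 113 of 241 tested protein-coding genes higher and 17 lower in TC4-2A cells (median 0.17) and 130 higher and 31 lower in TL4-2A cells (median 0.17). The part of this shift in the values of IRS2 was not tested. INSR, on chromosome 19, fell by 0.26 and 0.30 in TC4-2A and TL4-2A cells among neighbours with medians of -0.15 and -0.09. For IGF1R on chromosome 15, IGF2R on chromosome 6, IGFBP4 on chromosome 17 and PIK3R1 on chromosome 5 the medians lay between -0.12 and 0.04 in the comparisons with T-REx cells.

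Over the 9 libraries the genes whose log2 CPM followed IRS4 most closely, of 14539 genes compared, were JCAD, MIR222HG, KIF18B, RBM5 and SRCAP, with Pearson's r from 0.995 to 0.998. The 9 libraries share 3 lines, so these coefficients describe an order of lines and carry no test. MIR222HG, the host of the microRNAs miR-221 and miR-222, also lies on the X chromosome and had 8.24 CPM in the TC4-2A and 25.7 CPM in the TL4-2A line, against 3.98 CPM in T-REx cells. RBM5, a splicing regulator, had 103.0, 122.7 and 89.3 CPM, and SRCAP, a chromatin remodeller, 32.9, 40.2 and 27.5 CPM in TC4-2A, TL4-2A and control cells. Among the 10 genes themselves, IRS1 followed IGFBP2 (r = 0.955) and IGFBP5 (r = 0.896) over these libraries, and IRS4 ran against INSR (r = -0.868).

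The wider pathway was read from 9 lists holding 94 genes, the 10 genes included, of which 84 were tested. In TC4-2A cells 18 rose and 23 fell, while in TL4-2A cells 25 rose and 34 fell. These were shares of 48.8% and 70.2%, beside the 28.8% and 44.3% of all genes, non-coding ones included. Of the 13668 tested protein-coding genes 2377 rose and 2529 fell in TC4-2A cells, and 3320 rose and 3659 fell in TL4-2A cells. Between TC4-2A and TL4-2A cells 42 of the 84 were called, 20 of them higher in TC4-2A cells. The median log2 fold change over the 84 was -0.01 in the TC4-2A and -0.07 in the TL4-2A line.

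Of the ligands, the IGF1 and INS genes had no count in any library, and IGF2 had 0.450, 0.807 and 0.699 CPM in TC4-2A cells and 0.545, 0.428 and 0.488 CPM in TL4-2A cells, against 1.01, 0.927 and 1.15 CPM in T-REx cells. At 8 to 22 counts a library, IGF2 fell in TL4-2A cells (log2 fold change -1.07, edgeR adjusted p = 0.00981) and was not called in TC4-2A cells (-0.64, edgeR adjusted p = 0.116). Of the 4 receptor genes listed INSRR was not tested. Of the 15 docking and adaptor proteins 6 rose and 3 fell in TC4-2A cells, and 5 rose and 4 fell in TL4-2A cells. GAB1, a docking protein of several receptor kinases, rose in TC4-2A cells, with 53.8, 54.8 and 58.5 CPM against 40.4, 34.4 and 38.5 CPM in T-REx cells (log2 fold change 0.56, edgeR adjusted p = 1.8e-10), and had 34.5, 33.5 and 38.3 CPM in TL4-2A cells (-0.09, edgeR adjusted p = 0.217). Without control library 2 the TL4-2A value of GAB1 was -0.16 and was called (edgeR adjusted p = 0.0392). Compared directly, GAB1 was 0.65 higher in TC4-2A than in TL4-2A cells (edgeR adjusted p = 4.22e-12). GRB14, an inhibitor of the insulin receptor, rose in TL4-2A cells (0.59, edgeR adjusted p = 7.64e-08) and had 0.18 in TC4-2A cells (edgeR adjusted p = 0.0878). GRB14 lies at chr2:164492417-164621482, in the stretch beyond 140 Mb whose genes had a median of 0.48 in TL4-2A cells. The part of that stretch in the rise of GRB14 was not tested.

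Of 9 tested binding proteins and factors that cut or guard them 5 fell and 0 rose in TC4-2A cells, where 14.6% of all genes fell, and 6 fell and 2 rose in TL4-2A cells, where 22.5% of all genes fell. Among the 5 tested IGFBP genes, IGFBP2 and IGFBP5 fell in TC4-2A cells, while in TL4-2A cells IGFBP4 and IGFBP7 fell and IGFBP2 and IGFBP5 rose. The other 4, PAPPA, STC1, STC2 and HTRA1, all fell in TL4-2A cells, and all but STC2 fell in TC4-2A cells. The median log2 fold change of the 9 was -0.27 in the TC4-2A and -0.56 in the TL4-2A line, against 0.00 for all genes. PAPPA, the protease that frees IGF from IGFBP4, had 0, 1 and 0 counts in TC4-2A libraries and 22, 12 and 9 in TL4-2A libraries, against 40, 48 and 34 in T-REx cells. It was called lower in both lines (edgeR adjusted p = 2.31e-11 in the TC4-2A and 3.19e-04 in the TL4-2A line), with a log2 fold change of -1.29 in TL4-2A cells. STC2, a secreted inhibitor of PAPPA, had 115, 111 and 113 CPM in TC4-2A cells and 78.5, 77.1 and 80.5 CPM in TL4-2A cells, against 118, 117 and 114 CPM in T-REx cells. It fell in TL4-2A cells (-0.56, edgeR adjusted p = 5.79e-15), and its value in TC4-2A cells was -0.04.

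**Figure D5:**
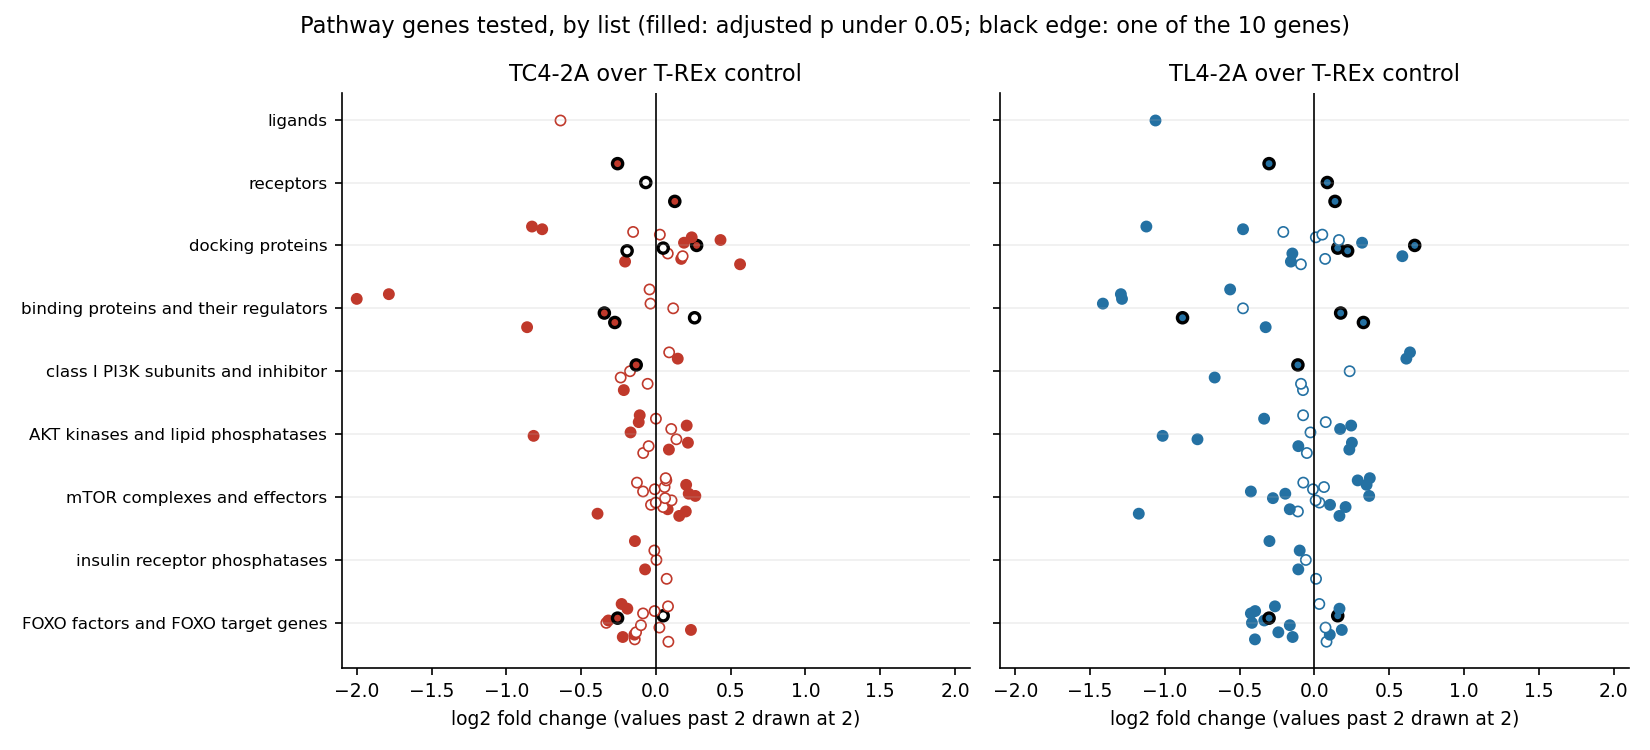
Log2 fold change (x axis) of the 84 tested pathway genes by list (y axis), for TC4-2A over T-REx cells on the left and TL4-2A over T-REx cells on the right; filled points have an adjusted p under 0.05, points with a black edge are among the 10 genes, and PAPPA in TC4-2A cells is drawn at the edge. Of 9 binding proteins and regulators 5 fell in the TC4-2A and 6 in the TL4-2A line.

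Within PI3K, 7 genes were tested, of which 1 rose and 2 fell in TC4-2A cells and 2 rose and 2 fell in TL4-2A cells. PIK3R3, another regulatory subunit, rose in TL4-2A cells to 46.6, 47.2 and 50.8 CPM, against 32.3, 29.5 and 32.8 CPM in T-REx cells (0.61, edgeR adjusted p = 3.54e-12), while PIK3R1 fell. In TC4-2A cells PIK3R3 was called at 0.15 (edgeR adjusted p = 0.0382), which was lost without control library 2 or TC4-2A library 2 (edgeR adjusted p = 0.222 and 0.228) and with DESeq2 (adjusted p = 0.118). The catalytic subunit PIK3CD fell in TL4-2A cells (-0.67, edgeR adjusted p = 2.75e-05). Of the 12 AKT kinases and lipid phosphatases 3 rose and 4 fell in TC4-2A cells, and 4 rose and 4 fell in TL4-2A cells. AKT2 rose in TL4-2A cells (0.23, edgeR adjusted p = 4.57e-08), and its TC4-2A call (0.09, edgeR adjusted p = 0.0247) was lost without control library 2 or 3 or TC4-2A library 1 (edgeR adjusted p = 0.092, 0.146 and 0.142) and with DESeq2 (adjusted p = 0.0576). INPP4B, which removes a phosphate from a PI3K lipid product, fell in TL4-2A cells (-0.78, edgeR adjusted p = 2.06e-10) and had 0.14 in TC4-2A cells.

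Further down, 6 of 18 genes of mTOR and its effectors rose and 1 fell in TC4-2A cells, and 7 rose and 5 fell in TL4-2A cells. DEPTOR, which inhibits mTOR, had 10.9, 10.2 and 9.67 CPM in TC4-2A cells and 6.17, 5.99 and 5.67 CPM in TL4-2A cells, against 13.6, 14.7 and 11.9 CPM in T-REx cells. It fell in both lines, by 0.39 in the TC4-2A and 1.17 in the TL4-2A line as log2 fold changes (edgeR adjusted p = 9.44e-04 and 5.71e-12). RICTOR, the defining subunit of mTOR complex 2 and a FOXO target, fell in TL4-2A cells (-0.43, edgeR adjusted p = 1.5e-11). Of the 5 phosphatases listed for the insulin receptor and its signal 0 rose, 2 fell in the TC4-2A and 3 in the TL4-2A line. PTPRJ, called at -0.14 in TC4-2A cells, lost that call without control library 1 or 3 or TC4-2A library 3 (edgeR adjusted p = 0.133, 0.068 and 0.104) and with DESeq2 (adjusted p = 0.08). PTPN11, called there at -0.07, lost it without control library 2 or 3 or TC4-2A library 2 or 3 (edgeR adjusted p = 0.0508, 0.102, 0.105 and 0.109). Of the 17 FOXO factors and FOXO target genes, which include IRS2, INSR and RICTOR, 1 rose and 6 fell in TC4-2A cells and 4 rose and 10 fell in TL4-2A cells. SESN1, a stress-induced restraint on mTOR, fell in TL4-2A cells (-0.40, edgeR adjusted p = 8.8e-09) and had -0.01 in TC4-2A cells. SESN3, a related gene named after its values were seen, fell in TC4-2A cells (-0.19) and rose in TL4-2A cells (0.17), and the direct difference of -0.36 had the smallest p of the list in that comparison (edgeR adjusted p = 5.54e-13).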

How the data were processed

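The authors deposited raw counts per gene for 9 libraries, made, by the study's methods and the submitters' processing notes, from paired-end reads with HISAT2 (mapping to GRCh38) and featureCounts of Subread (counting over Gencode v33). Their versions and the strand setting were not given in the sources used here. Deposited columns with log2 fold changes, standard errors and p-values from the authors' DESeq2 runs were not used.

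The counts were used as deposited, leaving out 3 damaged lines. Names, positions and canonical transcript lengths were taken from Gencode v44, where 60462 (99.69%) of the gene IDs were found. Lines were compared, 2-sided, with the quasi-likelihood test of edgeR 4.0.16 (R 4.3.3, TMM, filterByExpr) in 1 model of all 9 libraries, with Benjamini-Hochberg adjustment over 19473 genes and a threshold of 0.05. On simulated data for TC4-2A against T-REx cells (19147 genes) the test recovered 71.6%, 86.6% and 97.0% of genes changed 1.5-fold, 2-fold and 4-fold, with 7 false among 177 calls. CPM use TMM library sizes. Replicate libraries differed by more than sampling noise. Depth was 16561680 to 21491977 counts a library.

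The 10 genes, the 9 lists and the tests were chosen with earlier results of these data known. Genes named are the 10, in each list the 2 others with the smallest p in either comparison with T-REx cells, the 5 most correlated with IRS4 (averaging at least 1 log2 CPM), and the 5 tested protein-coding neighbours on each side of IRS4. The alternatives tried were a replicate block, each library left out in turn, a fit of only the 2 lines compared, a minimum of 10 counts in each library, no filter, RLE scaling and DESeq2 1.42.0. Plots were made with matplotlib 3.10.9.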

Additional observations from a re-analysis of the deposited data

Results flagged for a closer look

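For 6 of the 10 genes the change against T-REx cells differed between the lines. This was judged by the direct test of TC4-2A against TL4-2A cells (edgeR, adjusted p under 0.05), which called 35.4% of all genes tested. The log2 difference, TC4-2A minus TL4-2A, was -0.41 for IRS1, -0.40 for IRS4, -0.15 for IGF2R, -0.60 for IGFBP2, -0.52 for IGFBP5 and 1.14 for IGFBP4. Of these, IRS1, IGFBP2 and IGFBP5 lie in the stretch of chromosome 2 whose 380 tested protein-coding genes had a median of -0.49 in the same comparison. IGFBP4 rests on 8 to 31 counts a library. No group held 4 or more libraries, so no single library was examined as standing apart.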

How the results depend on the processing

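Of the alternatives for the 10 genes, 420 values kept their direction and side of the threshold, 24 calls were lost and 3 uncalled values changed sign. For the other genes named 1257 values held, 27 calls were lost, 6 were gained and 6 uncalled values changed sign. Without single libraries the number of the 10 genes called ranged from 5 to 6 in TC4-2A and from 6 to 10 in TL4-2A against T-REx cells. The lowest, 6, was without T-REx control replicate 3. DESeq2 called 6, 7 and 6 of the 10 genes (in TC4-2A and in TL4-2A against control cells, and between the lines with an insertion), no expression filter left 6, 8 and 6, and at least 10 counts in every library 6, 9 and 5. The same numbered libraries of different lines did not vary together (correlations -0.029 to 0.03), so the numbers do not pair them. With the replicate block the counts were 6, 10 and 6 of the 10 genes and 44, 58 and 41 pathway genes, beside 41, 59 and 42 without it. Small uncalled values turned sign. IGF1R between TC4-2A and TL4-2A cells was 0.0034 without the filter and lay between -0.0247 and 0.013 without single libraries, and PIK3R1 between -0.0489 and 0.0031. Without single libraries SESN1 lay between -0.0271 and 0.0158 in TC4-2A and ACSL4 between -0.0126 and 0.0264 in TL4-2A against control cells, and MID2 between -0.0066 and 0.0414 and NXT2 between -0.0121 and 0.1614 in TC4-2A against TL4-2A cells. The causes were not tested.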
